A study of Mus musculus with 3 samples.

Results

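The enzymes and receptors of the prostaglandin pathway were followed by single-cell RNA sequencing (scRNAseq) in the cells of the flexor digitorum longus (FDL) tendon, a flexor tendon of the mouse hind paw. The set holds 9 genes, taken by symbol from the 32285 genes of the count tables, and each symbol occurred once. They are the cyclooxygenases Ptgs1 and Ptgs2, the prostaglandin E synthases Ptges and Ptges3, the prostacyclin synthase Ptgis, the prostaglandin D synthase Ptgds, the prostaglandin-degrading dehydrogenase Hpgd, and the prostaglandin E2 receptor genes Ptger2 and Ptger4, whose proteins are called EP2 and EP4. All 9 had at least 1 unique molecular identifier (UMI, a count of 1 captured transcript) in the kept cells of every library.

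Prostaglandins are short-lived lipid signals. Phospholipases free arachidonate from membranes, a cyclooxygenase turns it into prostaglandin H2, and a terminal synthase turns that into prostaglandin E2, prostacyclin, prostaglandin D2 or thromboxane, after which uptake and 15-hydroxyprostaglandin dehydrogenase end the signal. In tendon the pathway is known for its induction by load and injury, and it is the target of non-steroidal anti-inflammatory drugs.

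There were 3 libraries, 1 per group, each from 16 FDL tendons pooled from mice of both sexes. In 6 M DTR, Scx-Cre+; DTR F/+ mice carry Cre under the promoter of Scleraxis, a transcription factor of tendon cells, which switches on a diphtheria toxin receptor so that diphtheria toxin (DT) kills Scleraxis-lineage cells. The 6 M WT group were littermates without Cre (Scx-Cre-; DTR F/+) that carried the same DTR F/+ allele and received the same 5 DT injections, and the 21 M B6 group were untreated C57BL/6J mice of 21 months without the allele. By the study's methods the toxin was given 3 months before harvest at 6 months, whereas the labels give 3 months as the age of both DT groups. Scx is also active outside tendon, and the lineage is set by Cre activity, not by Scx at harvest. The 6 M WT tendons were digested for 120 min and those of 6 M DTR and 21 M B6 for 90 min, so digestion time and genotype or age cannot be told apart, nor can age and DT treatment between 21 M B6 and the others. Values given for the 3 libraries are in the order 6 M WT first, then 6 M DTR, then 21 M B6. With 1 library per group no difference could be tested. Ranges in parentheses are exact 95% intervals that cover counting error only.

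The libraries held 92707026 to 148149903 UMIs, and 8357, 6554 and 4798 cells were kept, with median depths of 12328 to 13008 UMIs. Barcodes with over 10% mitochondrial counts made up 27.6%, 43.1% and 56.5% of these libraries. Each pair of libraries shared 61 to 76 barcodes, of which 13 to 15 were kept in both. Cells were put into classes by markers that include none of the 9 genes. Tenocyte-like cells, named from Tnmd, Fmod, Thbs4, Comp and other tendon genes, numbered 5136, 2776 and 873. Epitenon-like cells, named from Pi16, Dpp4, Efemp1 and other genes of the tendon sheath, numbered 1277, 1176 and 2509. Macrophage-like cells, named from C1qa, Csf1r, Mrc1 and others, numbered 530, 1046 and 469. The markers of these classes had summed levels in their own cells of 17322 to 20477 CPM (counts of a gene for each 1000000 counts of the class, not divided by gene length), 5371 to 5841 CPM and 8041 to 10045 CPM respectively. These levels follow from the gate and are no check of the names. Outside the gate, Igfbp6, Gsn and Clec3b were listed for epitenon cells. Together they stood in tenocyte-like cells at 52.8%, 59.5% and 56.6% of their epitenon level. Singly, Igfbp6 stood at 111%, 94.7% and 120%, Gsn at 42.7%, 54.2% and 48.3%, and Clec3b at 74.4%, 37.7% and 81.0%. Igfbp6 thus did not set epitenon-like cells apart from tenocyte-like cells. The tenocyte genes Coch, Chad, Kera and Cilp stood together in epitenon-like cells at 5.16%, 6.32% and 5.87% of their tenocyte level. T cell-like, endothelial-like, mural-like, Schwann-like and muscle-like cells made up 30 to 304 cells each, and 824, 704 and 542 cells passed no gate. Few tenocyte-like cells lay near the cut of the gate, namely 266, 118 and 62.

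Promoter sequences follow for both cyclooxygenase genes, because both were highest in epitenon-like cells, among classes with at least 50 cells, but seldom detected together. Ptges, which acts next to make prostaglandin E2, was added. Sequences are the 250 bases before the RefSeq transcript start on GRCm38.p6, written along the strand of the gene, and 8 of the 9 genes had an entry. Capitals mark matches to motifs searched on both strands. The Ptgs1 stretch lay at chr2:36230176-36230425 on the plus strand and held no match. The Ptgs2 stretch lay at chr1:150099781-150100030 on the plus strand, with a GC box (GGGCGG) beginning 170 bases and a C/EBP palindrome (TTGCGCAA) beginning 69 bases before the start. The Ptges stretch lay at chr2:30903298-30903547 on the minus strand, with GC boxes beginning 53 and 42 bases before the start.
Ptgs1: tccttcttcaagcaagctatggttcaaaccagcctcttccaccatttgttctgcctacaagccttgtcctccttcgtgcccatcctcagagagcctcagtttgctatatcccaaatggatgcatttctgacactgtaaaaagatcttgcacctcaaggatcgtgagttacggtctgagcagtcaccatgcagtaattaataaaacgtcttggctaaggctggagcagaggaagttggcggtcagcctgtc
Ptgs2: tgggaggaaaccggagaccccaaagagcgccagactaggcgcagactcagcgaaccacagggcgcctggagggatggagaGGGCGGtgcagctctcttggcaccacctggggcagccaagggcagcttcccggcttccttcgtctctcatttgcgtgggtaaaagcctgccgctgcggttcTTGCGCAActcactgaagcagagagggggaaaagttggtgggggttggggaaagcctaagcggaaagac
Ptges: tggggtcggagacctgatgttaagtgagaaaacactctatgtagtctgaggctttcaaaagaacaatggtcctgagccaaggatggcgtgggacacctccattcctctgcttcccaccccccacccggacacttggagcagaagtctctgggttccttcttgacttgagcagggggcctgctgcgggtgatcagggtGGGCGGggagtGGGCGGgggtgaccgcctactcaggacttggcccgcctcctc
Just after the Ptgs2 start, bases 8 to 31 (chr1:150100038-150100061) held the core of a cAMP response element (CGTCA, the reverse of TGACG) that overlapped an E-box (CACGTG). This stretch was cut around the E-box and for Ptgs2 alone, so the match was fixed by that choice. The shares of promoters given below are for the 250 bases before the start and not for this stretch.
Ptgs2 after the start: ccactaCGTCACGTGgagtccgct
Among 32841 RefSeq promoters of the same length, TTGCGCAA was found in 0.164% and GGGCGG in 32.7%. The other motifs searched in these windows were TGACG, in 17.8% of promoters, CACGTG in 6.02%, the AP-1 site TGANTCA in 6.75%, TATAAA in 12.4% and CCAAT in 33.9%. A match is a description of the letters and not a measured binding site.

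The genes differed in the class where they were highest. Among classes with at least 50 cells, Ptgis was highest in tenocyte-like cells of all 3 libraries and Ptges in those of 6 M WT and 6 M DTR, Ptgs1 and Ptgs2 in epitenon-like cells of all 3 libraries, and Hpgd and Ptger4 in macrophage-like cells of all 3 libraries. Ptges3 was at similar levels in every class, and Ptgds and Ptger2 were close to the limit of detection. The plot of levels by class shows these classes.

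**Figure D1:**
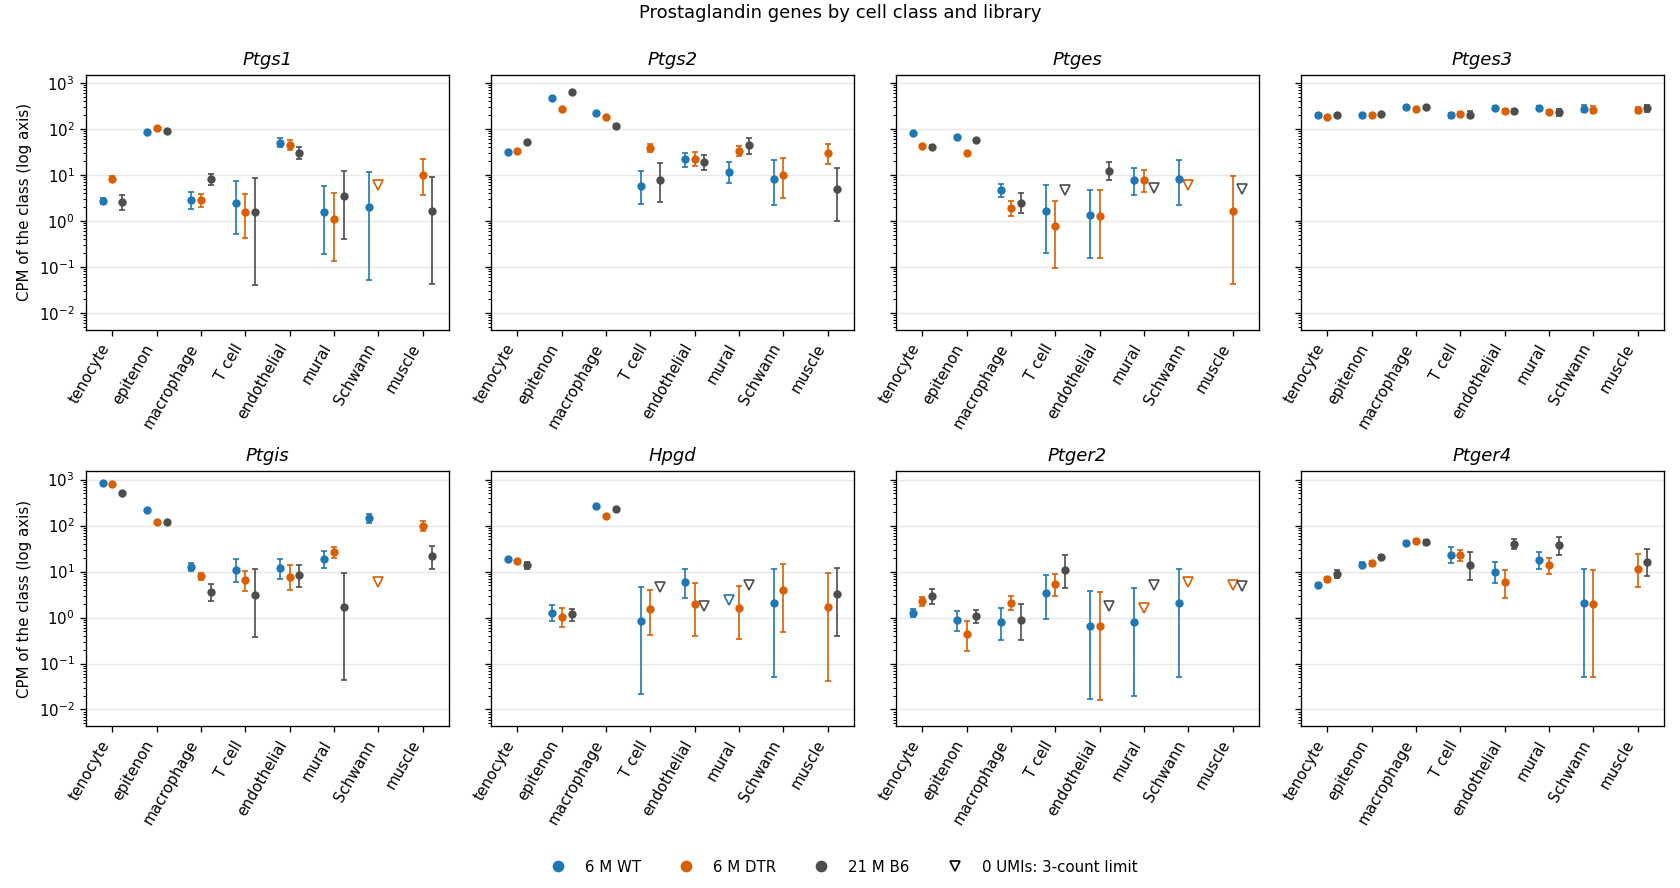
Level of 8 prostaglandin genes in each cell class with at least 50 cells; the vertical axis is CPM of the class on a log scale, colours mark the libraries, points are summed counts of 1 library, bars are exact 95% Poisson intervals (counting error only), and open triangles mark the level that 3 counts would give where no UMI was found. Ptgs1 and Ptgs2 peak in epitenon-like cells, Ptgis in tenocyte-like cells, and Hpgd in macrophage-like cells at 164 to 272 CPM.

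The libraries also differed in their make-up, and the plot of where the UMIs lie sets the genes against it. Tenocyte-like cells held 61.1%, 42.6% and 16.0% of all UMIs of the kept cells in the 3 libraries, and epitenon-like cells held 17.2%, 21.4% and 57.2%. Of the Ptgs2 UMIs, 43.6%, 44.7% and 88.0% lay in epitenon-like cells. Of the Ptges UMIs, 72.0% and 66.2% lay in tenocyte-like cells of 6 M WT and 6 M DTR, but 14.5% in 21 M B6, where 73.6% lay in epitenon-like cells. Over all kept cells Ptgs2 stood at 189.8, 132 and 424 CPM, and Ptgis at 587, 390.5 and 170.5 CPM. Because the make-up of the libraries differs, all further values are given within a class.

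**Figure D2:**
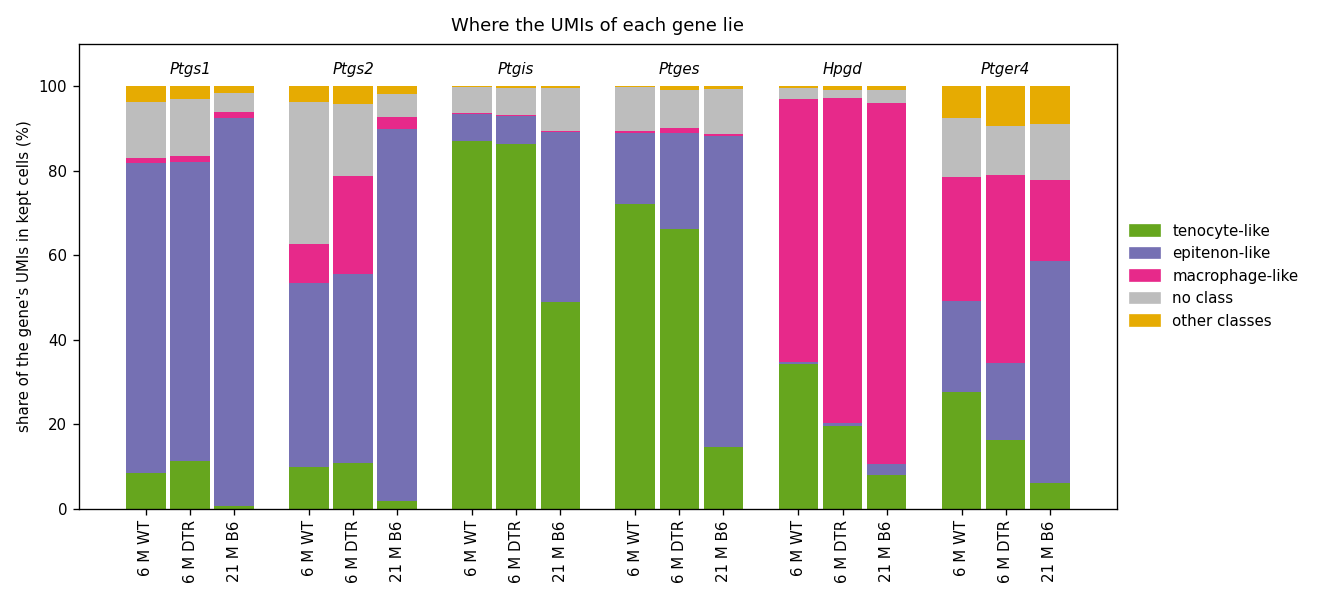
Share of the UMIs of 6 genes (vertical axis, percent of the gene's UMIs in kept cells) that lay in tenocyte-like, epitenon-like and macrophage-like cells, in cells of other classes and in cells that passed no gate, with 1 bar for each library. In 21 M B6 epitenon-like cells held 88.0% of Ptgs2 and 73.6% of Ptges UMIs, against 43.6% and 16.8% in 6 M WT.

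Supply of arachidonate was described with other genes of the pathway. Pla2g4a, the cytosolic phospholipase that feeds cyclooxygenases, was highest in macrophage-like cells at 64.9, 54.9 and 46.2 CPM in the 3 libraries. Epitenon-like cells had 25.9, 22.9 and 27.1 CPM, and tenocyte-like cells 3.40, 6.42 and 3.61 CPM. Pla2g5, a secreted phospholipase, had the reverse order, with 158, 114 and 101 CPM in tenocyte-like cells, 33.9, 10.7 and 28.2 CPM in epitenon-like cells and no more than 1.64 CPM in macrophage-like cells. Pla2g5 in epitenon-like cells was 0.315 (0.267 to 0.369) times as high in 6 M DTR as in 6 M WT. Plaat3, a phospholipase A of membranes and organelles, was at 17.5 to 42.6 CPM across tenocyte-like and macrophage-like cells and 16.7 to 29.9 CPM in epitenon-like cells. Pla2g4b and Pla2g6 did not pass 2.40 CPM in any of these classes.

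Ptgs1, the cyclooxygenase usually described as constitutive (ENSMUSG00000047250, chr2:36230426-36252272, plus strand, GRCm38), was a gene of epitenon-like and endothelial-like cells. In epitenon-like cells it was at 85.1 (81.0 to 89.3), 103 (98.6 to 108) and 89.8 (86.8 to 92.9) CPM in the 3 libraries. The 3 libraries thus lay within 1.21 (1.13 to 1.30) times of each other, and with every cell thinned to 2000 UMIs 12.2%, 13.9% and 13.3% of the cells were positive (41.8%, 42.2% and 44.9% without thinning). Endothelial-like cells had 50.2, 45.4 and 30.2 CPM, with the value of 21 M B6 0.601 (0.413 to 0.868) times that of 6 M WT on 51 and 76 UMIs. Mural-like cells, which lie beside the endothelium in vessels, had 2 UMIs in each library.

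In tenocyte-like cells Ptgs1 was low, at 2.77 (2.39 to 3.19), 8.27 (7.37 to 9.26) and 2.57 (1.69 to 3.74) CPM in the 3 libraries. After thinning 0.584% (0.394 to 0.833), 1.37% (0.970 to 1.87) and 0.344% (0.0709 to 1.00) were positive, against 1.13%, 0.574% and 1.71% of macrophage-like cells, with median depths of 12923, 12393.5 and 11164 UMIs in tenocyte-like and 16232.5, 13142.5 and 13704 UMIs in macrophage-like cells. The shares of both classes had overlapping intervals in all 3 libraries. T cell-like cells, which should lack the gene, had 2.51 (0.518 to 7.34), 1.54 (0.419 to 3.94) and 1.56 (0.0395 to 8.69) CPM on 3, 4 and 1 UMIs, so the tenocyte level was above theirs beyond counting error in 6 M DTR alone. The ratio of 2.99 (2.49 to 3.60) between 6 M DTR and 6 M WT therefore has a denominator that cannot be told from that of T cell-like cells. Clusters made without the 9 genes split the value further. Cluster 4, led by Mstn, Edil3, Fbln7 and Cthrc1, held 44.7% of the tenocyte-like cells of 6 M DTR and 6.30% of those of 21 M B6, with 12.2 and 11.5 CPM. All 142 cells of this cluster in 6 M WT, whatever their class, had 41.5 CPM, beside 14.96 and 13.7 CPM in all its cells of both other libraries. Cluster 3, led by Npy, Slurp1 and Serpinb7, had 3.41, 6.93 and 5.88 CPM. Cluster 0, led by Saa1, Coch and Mmp3, held most tenocyte-like cells of 6 M WT (70.8%) and 21 M B6 (72.2%) and had 1.51, 2.16 and 0.809 CPM in the 3 libraries.

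Ptgs2, the inducible cyclooxygenase (ENSMUSG00000032487, chr1:150100031-150108227, plus strand), was high in epitenon-like and some myeloid cells. Among epitenon-like cells, 207, 122 and 563 had over 10 UMIs of it and held 86.5%, 80.1% and 86.5% of its UMIs in the class. In macrophage-like cells fewer cells carried most of the transcripts, as given below. In epitenon-like cells Ptgs2 was at 480.5 (471 to 490.3), 275 (267 to 283) and 653 (644 to 661) CPM in the 3 libraries. The order was the same in the share of positive cells, with 25.6% (23.2 to 28.1), 19.1% (16.9 to 21.5) and 34.3% (32.5 to 36.2) after thinning and 45.1%, 36.7% and 58.7% before. T cell-like cells, which should lack the gene, were positive in 3.42%, 1.64% and 3.28% of cases at median depths of 9961, 7841 and 9699 UMIs, against 15247, 15961 and 14422 UMIs in epitenon-like cells. Ptgs2 was 0.572 (0.553 to 0.592) times as high in 6 M DTR as in 6 M WT, 1.36 (1.33 to 1.39) times in 21 M B6 as in 6 M WT and 2.37 (2.30 to 2.45) times in 21 M B6 as in 6 M DTR. Without the 5 cells with most Ptgs2 UMIs in each library the levels were 429, 237 and 619 CPM, in the same order.

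The sexes gave different pictures of this gene. Cells with Xist UMIs and none of the Y-linked genes were taken as female, and the reverse as male. Female epitenon-like cells had 567, 224 and 729 CPM of Ptgs2 in the 3 libraries, and male ones 347, 333 and 591 CPM. The ratio of 6 M DTR to 6 M WT was 0.395 in female and 0.958 in male cells. Of the epitenon-like cells 750, 453 and 1173 were taken as female and 356, 546 and 939 as male, so the libraries also differed in their mix of sexes. Immediate early genes, such as Fos, Jun and Egr1, respond to stress and dissociation. In epitenon-like cells 14 of them summed to 10654, 11061 and 16907 CPM. There 10 inflammatory genes, such as Il6, Cxcl1 and Ccl2, summed to 16267, 15834 and 14668 CPM. The highest single inflammatory gene made up 9196, 8923 and 7501 CPM of these sums. Of the 9 inflammatory genes counted for 6 M DTR, 4 lay at least 2-fold below 6 M WT and none as far above it. Their median log2 ratio was -0.79. For 21 M B6, 3 of 9 lay at least 2-fold below 6 M WT and 1 above, with a median of -0.69. The part of both gene lists in the Ptgs2 levels was not tested.

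In tenocyte-like cells Ptgs2 was at 30.9 (29.6 to 32.2), 33.4 (31.6 to 35.4) and 51.3 (47.0 to 55.8) CPM in the 3 libraries. After thinning 3.17%, 4.00% and 5.04% were positive (12.5%, 13.2% and 13.9% without), which in 6 M WT was no more than the 3.42% of T cell-like cells. The level in T cell-like cells was 5.86, 39.2 and 7.80 CPM, with 84 of the 102 UMIs of 6 M DTR in 1 cell. Single cells weighed on the level, since 1 cell of 6 M WT held 404 of 2140 UMIs and 1 of 21 M B6 held 105 of 539. Without the 5 highest cells of each library the levels were 21.5, 29.0 and 29.0 CPM. The ratio of 21 M B6 to 6 M WT, 1.66 (1.51 to 1.83) over all cells, was 0.458 in male cells alone, and no order between the libraries is read from it. The immediate early genes summed to 7882, 12023 and 14475 CPM in tenocyte-like cells.

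Macrophage-like cells had 221 (212 to 231), 179.5 (173 to 187) and 118 (110.4 to 127) CPM of Ptgs2 in the 3 libraries. The positive share was much alike, at 10.8% (8.25 to 13.7), 9.67% (7.94 to 11.6) and 8.74% (6.35 to 11.7) after thinning and 25.3%, 18.9% and 22.8% before. Few cells carried most of the transcripts, since cells with over 10 UMIs, numbering 34, 52 and 19, held 88.8%, 85.9% and 71.3% of them. The ratio to 6 M WT was 0.811 (0.765 to 0.861) in 6 M DTR, where it was 1.36 in male cells alone, and 0.535 (0.493 to 0.582) in 21 M B6. The inflammatory genes, such as Il1b and Tnf, summed to 48794, 42187 and 19142 CPM in the same cells. Of the 8 of these genes that could be counted, 7 were at least 2-fold lower in 21 M B6 than in 6 M WT and 1 at least 2-fold higher. Their part in the Ptgs2 levels was not tested.

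Much myeloid Ptgs2 lay outside this class. The cluster that holds the macrophage-like cells also held 78, 92 and 36 cells that passed no gate, with 5424, 424 and 339 CPM of Ptgs2. In 6 M WT these 78 cells held 25.6% of all Ptgs2 UMIs of the library, against 5.34% in 6 M DTR and 0.728% in 21 M B6. They were led in 6 M WT by Inhba, Serpinb2, Thbs1 and Chil3, and in 6 M DTR by Ccl17, Plbd1 and Mgl2. In 21 M B6 they were led by Ccl17, Cytip, Il1r2 and Plbd1. H2-Eb1 was among the first 7 genes of both 6 M DTR and 21 M B6. Their C1qa was at 188, 216 and 73.4 CPM and their Il1b at 8600, 3831 and 2997 CPM. With these cells added, the macrophage Ptgs2 ratio to 6 M WT was 0.266 for 6 M DTR and 0.180 for 21 M B6. Neutrophil-like cells, 40 of them in 6 M WT and 1 and 2 in the other libraries, held 3.12% of the Ptgs2 UMIs of 6 M WT at 2497 CPM, above the epitenon-like level. Dendritic-like cells, 13, 21 and 20 in number, had 292, 551 and 1123 CPM on 70, 247 and 427 UMIs, above the epitenon-like level in 6 M DTR, as in 21 M B6.

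Within macrophage-like cells, those with at least 2 of the class II antigen presentation genes H2-Ab1, H2-Eb1 and Cd74 at high levels numbered 23, 147 and 54. They had 1138, 612 and 464 CPM of Ptgs2 against 175, 113 and 74.3 CPM in the others, and the higher level held in every library. Hpgd had the opposite order, with 126, 98.7 and 70.3 CPM in class II cells against 279, 174 and 244 CPM in the others. Ptger4 had no common order, with 53.6, 64.3 and 30.0 CPM against 41.7, 44.2 and 45.1 CPM.

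**Figure D3:**
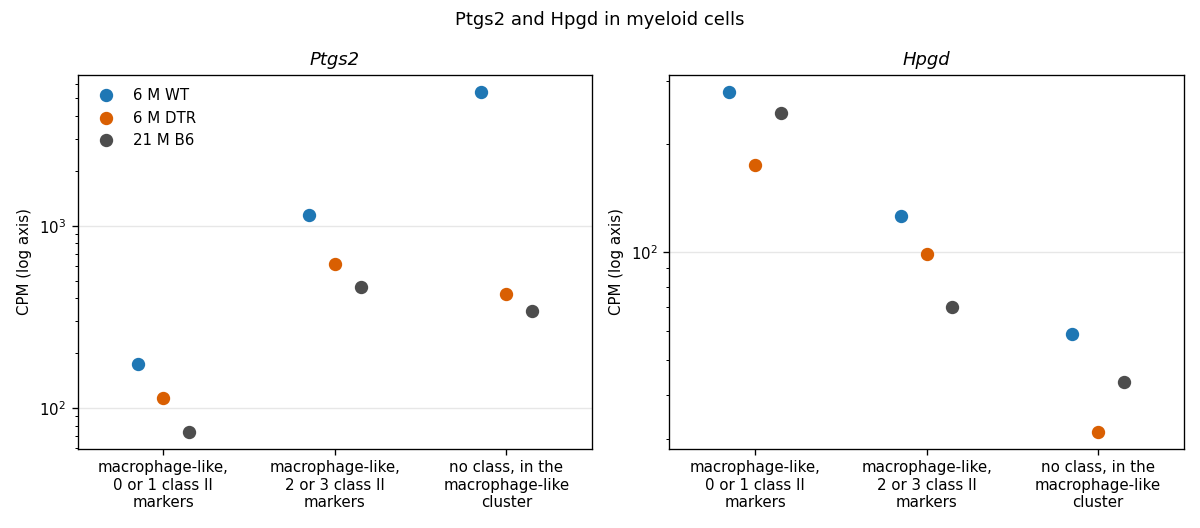
Level of Ptgs2 and Hpgd (vertical axes, CPM on log scales) in macrophage-like cells with fewer than 2 and with at least 2 class II markers, and in cells of the macrophage-like cluster that passed no gate; each point is 1 library. Ptgs2 was above and Hpgd below the first group in both other groups of all 3 libraries, with Ptgs2 at 5424 CPM in the ungated cells of 6 M WT.

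The terminal enzyme of inducible prostaglandin E2 synthesis, Ptges (microsomal prostaglandin E synthase 1, ENSMUSG00000050737, chr2:30889471-30929863, minus strand), was shared by tenocyte-like and epitenon-like cells. Tenocyte-like cells had 82.0 (79.9 to 84.1), 43.0 (40.9 to 45.2) and 41.3 (37.5 to 45.3) CPM in the 3 libraries. Both other libraries thus lay at about the same level below 6 M WT, with ratios of 0.524 (0.495 to 0.554) and 0.503 (0.456 to 0.555). The positive shares were 11.1%, 6.41% and 5.84% after thinning and 34.1%, 26.6% and 18.9% before, with 1.13%, 0.0957% and 0.213% in macrophage-like cells. The inflammatory genes summed to 9173, 7994 and 6125 CPM in tenocyte-like cells. Of the 9 counted for 6 M DTR, 4 lay at least 2-fold below 6 M WT and none as far above it, with a median log2 ratio of -0.87. For 21 M B6, 5 of 9 lay at least 2-fold below 6 M WT and 1 above, with a median of -1.70. The part of these genes in the Ptges levels was not tested. By sex, female tenocyte-like cells had 96.1, 44.4 and 48.0 CPM and male ones 53.3, 44.6 and 35.8 CPM, so that the ratio of 6 M DTR to 6 M WT was 0.462 in female and 0.837 in male cells.

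Ptges was spread unevenly among tenocyte-like cells. Cluster 0 had 99.6, 70.9 and 45.2 CPM and cluster 3 had 31.7, 26.4 and 19.4 CPM in the 3 libraries. Cluster 4 of 6 M DTR had 34.4 CPM and that of 21 M B6 had 8.59 CPM. Within cluster 0 alone the level was still lower in 6 M DTR and lower again in 21 M B6 than in 6 M WT. Cells with at least 2 of the acute phase genes Lcn2, Saa3 and Saa1 at high levels numbered 386, 45 and 10 and had 185, 110 and 51.1 CPM of Ptges, compared with 72.1, 41.5 and 41.1 CPM in the other tenocyte-like cells. The acute phase values rest on 1128, 89 and 7 UMIs, so no difference is read in 21 M B6.

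Epitenon-like cells had 67.9 (64.3 to 71.7), 29.4 (27.0 to 32.0) and 58.4 (56.0 to 60.9) CPM of Ptges in the 3 libraries. Here 6 M DTR stood apart from both other libraries, at 0.433 (0.392 to 0.479) times 6 M WT, while 21 M B6 was at 0.860 (0.803 to 0.921) times 6 M WT and 1.98 (1.81 to 2.18) times 6 M DTR. The positive shares were 9.42%, 5.12% and 9.21% after thinning and 35.6%, 28.1% and 34.7% before. The second prostaglandin E synthase, Ptges3 (ENSMUSG00000071072, chr10:128058954-128077272, plus strand), a cytosolic enzyme that is also the Hsp90 co-chaperone p23, varied little. It was at 205, 179 and 201 CPM in tenocyte-like, 205, 199 and 212 CPM in epitenon-like and 303, 274 and 299.9 CPM in macrophage-like cells, with all ratios between libraries in these classes from 0.873 to 1.12. The third, Ptges2, did not pass 9.62 CPM.

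Prostacyclin synthase, Ptgis (ENSMUSG00000017969, chr2:167191805-167240604, minus strand), which makes prostaglandin I2, was found in most tenocyte-like cells. It was at 837 (830.1 to 844), 789.8 (781 to 799) and 520.4 (507 to 534) CPM in the 3 libraries. After thinning 74.4% (73.2 to 75.6), 69.7% (68.0 to 71.4) and 58.0% (54.6 to 61.3) of the cells were positive, and 98.4%, 93.6% and 92.8% without thinning. The old library was at 0.622 (0.605 to 0.639) times 6 M WT, and 6 M DTR at 0.944 (0.931 to 0.957) times. Clusters 0 and 3 both showed the lower level of 21 M B6, with 794, 874 and 525 CPM in cluster 0 and 1011, 911 and 679 CPM in cluster 3, and the remaining cluster 4 had 686 CPM for 6 M DTR and 392 CPM for 21 M B6.

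Epitenon-like cells had 219 (212 to 225), 122 (117 to 128) and 120.1 (117 to 124) CPM of Ptgis in the 3 libraries. Both other libraries were at about the same level below 6 M WT, with ratios of 0.560 (0.532 to 0.590) and 0.550 (0.527 to 0.573). The positive shares were 28.9%, 17.2% and 17.2% after thinning and 65.4%, 47.5% and 47.2% before. Macrophage-like cells, which should lack the gene, had 12.5, 7.93 and 3.55 CPM and positive shares of 2.45%, 1.15% and 0.213%. Their level was 1.49%, 1.00% and 0.682% of that of tenocyte-like cells, while the tenocyte genes Coch, Chad, Kera and Cilp, outside the gate, stood together at 0.940%, 0.818% and 0.697%, so it is read as near background. The Schwann-like cells of 6 M WT had 145 (113 to 183) CPM on 71 UMIs, 17.3% of the tenocyte level. The same 4 tenocyte genes stood there together at 7.04% of their tenocyte level. Singly, Coch stood at 4.09%, Chad at 7.04%, Kera at 0% and Cilp at 32.5%. The Schwann-like cells of 6 M DTR had no Ptgis UMI in 82 cells, which allows up to 5.96 CPM, and the tenocyte genes stood at 0.562% there.

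The remaining synthases ranged from hardly seen to widespread. Ptgds (ENSMUSG00000015090, chr2:25466709-25470046, minus strand), the lipocalin-type prostaglandin D synthase, had 1, 2 and 13 UMIs in all kept cells of the 3 libraries. Both UMIs of 6 M DTR, and 11 of those of 21 M B6, lay in muscle-like cells, which had 3.32 and 18.1 CPM. None lay in tenocyte-like cells, which allows up to 0.0433, 0.0819 and 0.285 CPM. The other prostaglandin D synthase, Hpgds, was at 180.3, 84.7 and 177 CPM in macrophage-like cells, a ratio of 0.470 (0.436 to 0.507) between 6 M DTR and 6 M WT. Thromboxane synthase, Tbxas1, was at 32.7, 36.0 and 61.5 CPM in the same cells, 1.88 (1.62 to 2.20) times as high in 21 M B6 as in 6 M WT. The prostaglandin F synthases and reductases Cbr1 and Akr1b3 were found in all 3 classes, at 15.1 to 28.4 and 22.9 to 86.8 CPM, and Prxl2b at 26.2, 27.6 and 46.2 CPM in macrophage-like cells.

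Hpgd (ENSMUSG00000031613, chr8:56294585-56321043, plus strand), the dehydrogenase that inactivates prostaglandin E2 and its relatives, was a gene of macrophage-like cells. They had 272 (261 to 283), 164 (157 to 171) and 224 (213 to 236) CPM in the 3 libraries. The positive shares had the same order, with 35.8% (31.8 to 40.1), 23.0% (20.4 to 25.6) and 30.3% (26.1 to 34.7) after thinning and 81.9%, 54.2% and 75.7% before. Relative to 6 M WT, 6 M DTR was at 0.603 (0.570 to 0.639) times and 21 M B6 at 0.824 (0.773 to 0.879) times, and 21 M B6 was at 1.37 (1.28 to 1.46) times 6 M DTR. Epitenon-like cells had 1.28, 1.03 and 1.17 CPM, with 0.392%, 0.0853% and 0.239% positive. This was 0.470%, 0.631% and 0.522% of the macrophage level.

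Tenocyte-like cells had 19.1 (18.1 to 20.2), 16.7 (15.4 to 18.1) and 13.6 (11.5 to 16.0) CPM of Hpgd, and 3.06%, 2.45% and 1.95% of them were positive after thinning (11.4%, 9.91% and 6.99% before). This was 7.02%, 10.2% and 6.07% of the macrophage level, whereas the macrophage genes Pf4, Lyz2, Tyrobp and Ctss, chosen after their values were seen, stood together at 0.274%, 0.503% and 0.193% in tenocyte-like cells. Without the 5 highest cells of each library the tenocyte levels of Hpgd were 17.6, 13.8 and 7.86 CPM. Female tenocyte-like cells had 20.7, 25.55 and 20.4 CPM and male ones 11.9, 11.4 and 6.01 CPM, so no order between the libraries is read. Cells with at least 2 of Kera, Ucma and Col1a1 at high levels had 33.3, 26.1 and 27.9 CPM against 17.4, 16.1 and 12.3 CPM in the other tenocyte-like cells. Of the other genes of clearance, Slco2a1, the prostaglandin transporter, was highest in epitenon-like cells at 54.7, 43.2 and 48.5 CPM. Tenocyte-like cells had 11.9, 14.2 and 13.03 CPM of it and macrophage-like cells at most 2.48 CPM, so importer and dehydrogenase were highest in different classes. The prostaglandin reductases Ptgr1, Ptgr2 and Zadh2 ranged from 3.42 to 45.1 CPM across the 3 classes, Slco3a1, a second carrier, from 15.4 to 89.9 CPM, and the exporter gene Abcc4 did not pass 8.68 CPM.

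Ptger4 (ENSMUSG00000039942, chr15:5206661-5244187, minus strand), the gene of the EP4 receptor, which raises cAMP on binding prostaglandin E2, was highest in macrophage-like cells, among classes with at least 50 cells. In 21 M B6 their ratio to endothelial-like cells, the next class, was 1.09 (0.835 to 1.45). The ungated cells of the macrophage-like cluster had 61.9, 52.6 and 70.1 CPM in the 3 libraries. Macrophage-like cells had 42.2 (38.1 to 46.7), 46.8 (43.4 to 50.5) and 43.3 (38.5 to 48.6) CPM, intervals that all overlap. After thinning 8.11%, 8.61% and 6.61% were positive, and 36.8%, 36.3% and 31.8% without. Epitenon-like cells had 14.1 (12.5 to 15.9), 15.02 (13.3 to 16.9) and 21.1 (19.7 to 22.6) CPM, and tenocyte-like cells 5.11 (4.59 to 5.67), 6.85 (6.03 to 7.76) and 8.94 (7.22 to 10.9) CPM. The level in 21 M B6 was 1.496 (1.30 to 1.72) times that of 6 M WT in epitenon-like and 1.75 (1.38 to 2.20) times in tenocyte-like cells.

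In endothelial-like cells Ptger4 was higher in the old library. Endothelial-like cells, 158, 158 and 151 in number, had 9.92 (5.55 to 16.4), 5.84 (2.67 to 11.1) and 39.7 (30.7 to 50.4) CPM in the 3 libraries, on 15, 9 and 67 UMIs. The interval of 21 M B6 lay above both others and overlapped that of its macrophage-like cells, and without the 5 highest cells of each library the levels were 5.49, 0.681 and 29.4 CPM. The ratio was 4.00 (2.26 to 7.54) to 6 M WT and 6.80 (3.38 to 15.5) to 6 M DTR. After thinning, which leaves few UMIs per cell, 3.21%, 0.633% and 3.97% of the cells were positive, and 8.23%, 3.797% and 23.8% before, so no order is read from the shares. Mural-like cells had 17.99, 13.7 and 37.4 CPM on 23, 25 and 22 UMIs. All cells of the mural cluster, whatever their class, had 18.8, 11.3 and 18.6 CPM, so no order is read for mural-like cells. Of the mural-like cells of 21 M B6, 72.2% lay in that cluster. All cells of the endothelial cluster had 8.41, 9.38 and 43.6 CPM.

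Ptger2 (ENSMUSG00000037759, chr14:44988195-45003820, plus strand), the gene of the EP2 receptor, which also raises cAMP, had 165, 155 and 106 UMIs in all kept cells. Tenocyte-like cells had 1.27 (1.02 to 1.56), 2.24 (1.78 to 2.78) and 2.95 (2.003 to 4.18) CPM, epitenon-like cells 0.870, 0.435 and 1.06 CPM, and macrophage-like cells 0.789, 2.12 and 0.888 CPM. T cell-like cells had the highest level of the classes with at least 50 cells, 3.35, 5.38 and 10.9 CPM on 4, 14 and 7 UMIs. The other prostanoid receptors had their own patterns. Ptgfr, the prostaglandin F receptor gene, was highest in tenocyte-like cells at 50.8, 69.5 and 24.3 CPM, where 21 M B6 was at 0.479 (0.421 to 0.544) times 6 M WT. Ptgir, the prostacyclin receptor gene, was at 14.1, 15.02 and 34.9 CPM in the same cells, 2.47 (2.19 to 2.79) times as high in 21 M B6 as in 6 M WT, and at 35.8, 31.2 and 28.7 CPM in epitenon-like cells. Within tenocyte-like cells of 21 M B6 the synthase of prostacyclin was thus lower and its receptor higher than in 6 M WT. Ptger1 and Ptger3, the genes of the EP1 and EP3 receptors, did not pass 9.58 CPM, and the prostaglandin D2 receptor genes Ptgdr and Ptgdr2 had no more than 0.0951 CPM.

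Set side by side, most ratios of the 9 genes lay within 2-fold, as the plot of ratios to 6 M WT shows. A gene was counted in a comparison with at least 5 CPM in 1 of its libraries and 20 UMIs over both, which 5 to 7 of the 9 genes met in these classes. All counts of genes beyond 2-fold are descriptions of 1 library against another, and comparisons with 6 M WT share that library.

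In tenocyte-like cells 1 of 7 genes, Ptgs1, had a level in 6 M DTR at least 2-fold that of 6 M WT, beside 4.73% of all 9396 genes in either direction (3.08% higher, 1.65% lower). The median log2 ratio was -0.08 over the 7 genes and 0.05 over all genes. None of 6 was beyond 2-fold in 21 M B6 relative to 6 M WT, beside 6.82% of all genes (3.57% higher, 3.25% lower), with medians of -0.26 and -0.27. Relative to 6 M DTR, 1 of 7 was lower in 21 M B6, again Ptgs1, beside 12.1% of all genes (3.89% higher, 8.22% lower), with medians of -0.06 and -0.33. Ratios of 21 M B6 in these cells are thus to be read against a shift of all genes by -0.27 and -0.33.

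In epitenon-like cells 1 of 6 genes, Ptges, was at least 2-fold lower in 6 M DTR than in 6 M WT, beside 2.20% of all 9592 genes in either direction (0.521% higher, 1.68% lower). The median was -0.42 over the 6 genes and -0.01 over all genes, with Ptgs2 and Ptgis also below 0.6 times. None of 6 was beyond 2-fold in 21 M B6 relative to 6 M WT, beside 4.02% of all genes (2.0% higher, 2.01% lower), and 1 of 6, Ptgs2, was higher in 21 M B6 than in 6 M DTR, beside 6.21% (3.70% higher, 2.51% lower). Their medians were 0.06 and 0.29, and those of all genes -0.27 in both comparisons.

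In macrophage-like cells none of 5 genes was beyond 2-fold between 6 M DTR and 6 M WT, beside 2.53% of all 9008 genes (1.21% higher, 1.32% lower), with medians of -0.30 and -0.03. In 21 M B6, 2 of 6 genes were, relative to 6 M WT (7.36% of all genes, 4.10% higher and 3.26% lower) and to 6 M DTR (7.87%, 4.69% higher and 3.18% lower), and in both comparisons these were Ptgs1, higher, and Ptgis, lower. Both rest on few counts. Ptgs1 had 25, 41 and 55 UMIs, or 2.82, 2.80 and 8.14 CPM, with a ratio of 2.89 (1.77 to 4.84) to 6 M WT, and the Ptgis level was read above as near background. With 5 to 7 genes counted, 1 gene more or fewer is a large step in the share, so nothing particular to the set is read from these counts.

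**Figure D4:**
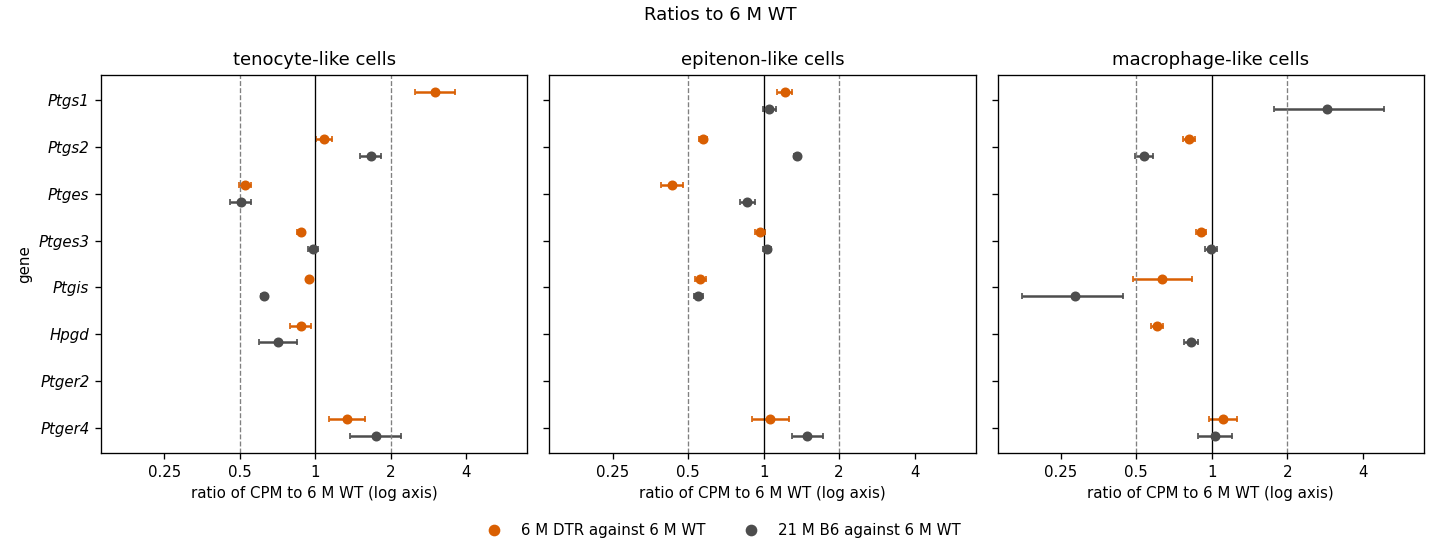
Ratio of CPM to 6 M WT (horizontal axis, log scale) in tenocyte-like, epitenon-like and macrophage-like cells for each prostaglandin gene that could be counted; points are 1 library against another, bars are exact 95% intervals for counting error, and dashed lines mark 2-fold. Ptges in both sheath and tendon cells of 6 M DTR lies at 0.433 and 0.524, and Ptges3 lies close to 1 throughout.

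Of a further 37 genes of the pathway, 23, 22 and 25 could be counted between 6 M DTR and 6 M WT in tenocyte-like, epitenon-like and macrophage-like cells. At least 2-fold higher in 6 M DTR were Abcc4 and Alox5ap in tenocyte-like, Ptger3 in epitenon-like, and Ptgir and Ltb4r1 in macrophage-like cells, and lower were Pla2g5 in epitenon-like and Plaat3 and Hpgds in macrophage-like cells. The Alox5ap level in tenocyte-like cells, 2.495 and 5.54 CPM in these libraries with 6 M WT first, stood beside 765 and 759.7 CPM in macrophage-like cells, and the macrophage genes Pf4, Lyz2, Tyrobp and Ctss stood in tenocyte-like cells at 0.274% and 0.503% of their macrophage level. Their part in the Alox5ap ratio was not tested. Between 21 M B6 and 6 M WT, 19, 21 and 24 could be counted. Ptgir was higher in tenocyte-like and macrophage-like cells, and Ptger1 and Ptgfr in tenocyte-like and Ptger1 in epitenon-like cells were lower. The medians of this list were 0.22, 0.04 and 0.07 for 6 M DTR and -0.23, -0.17 and 0.10 for 21 M B6, beside 0.05, -0.01 and -0.03 and -0.27, -0.27 and -0.07 over all genes. Between 21 M B6 and 6 M DTR, 1 gene was higher and 4 lower of 23 in tenocyte-like, 1 and 3 of 22 in epitenon-like, and 3 and 4 of 25 in macrophage-like cells. Of all genes, 12.1%, 6.21% and 7.87% were beyond 2-fold in either direction in this comparison. The shares were 4.73%, 2.20% and 2.53% between 6 M DTR and 6 M WT, and 6.82%, 4.02% and 7.36% between 21 M B6 and 6 M WT.

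For the leukotriene branch, which competes for the same arachidonate, levels of Lta4h, Ltb4r1 and Cysltr1 are not reported here. The 3 others of its listed genes, Alox5, Alox5ap and Ltc4s, lay in macrophage-like cells. Alox5 was at 279.7, 265 and 184 CPM, its activating protein gene Alox5ap at 765, 759.7 and 620.0 CPM, and Ltc4s, which makes leukotriene C4, at 138, 116 and 246 CPM. In tenocyte-like and epitenon-like cells these 3 genes did not pass 5.54 CPM. Among classes with at least 50 cells, those with most Ptgs1, Ptgs2, Ptges and Ptgis thus had next to none of them. This does not hold for myeloid Ptgs2, since macrophage-like cells had Ptgs2 as well as these 3 genes. The smaller myeloid groups with more Ptgs2 were not compared for them. Anxa1, a glucocorticoid target that restrains phospholipase A2, was abundant in these 3 classes, at 1225, 1284 and 1047 CPM in tenocyte-like, 1374, 1569 and 1274 CPM in epitenon-like and 1027, 1131 and 658 CPM in macrophage-like cells. Levels of Tsc22d3 and Dusp1, listed with it, are not reported here. Between 21 M B6 and 6 M DTR, Tsc22d3 was at least 2-fold lower in tenocyte-like cells and Dusp1 in macrophage-like cells. Of all genes, 8.22% and 3.18% were lower there.

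Epitenon-like cells were not uniform, as the plot by cluster shows. Cluster 2, led by Pi16, Ccn3, Tnfaip6 and Has2, held 84.3%, 87.6% and 88.1% of them and set the class values, with Ptgs2 at 539, 272 and 726 CPM. Cluster 9, led by Clic5, Col22a1 and Rab37 and named for no cell type, held 71, 102 and 133 cells with the highest Ptgs1, at 183, 241 and 202 CPM. There Ptgs2 was at 63.9, 36.7 and 31.0 CPM and Ptges at 1.62, 3.19 and 1.98 CPM, so Ptgs1 had the higher and Ptgs2 the lower level there in every library, compared with cluster 2. Cluster 8, led by Itgb4, Cldn1 and Sfrp4, held 77 cells of 6 M WT and 146 of 21 M B6, with Ptges at 60.5 and 169 CPM, against 74.3 and 56.8 CPM in cluster 2. Ptgs2 in these cells of cluster 8 was at 273 and 224.5 CPM. All cells of cluster 8, whatever their class, numbered 164, 52 and 209 and had 398.5, 1070 and 204 CPM of Ptgs2. The order of Ptgs2 in the class was thus not found in this cluster. No cluster is a replicate, and these differences between clusters of 1 library were not tested.

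**Figure D5:**
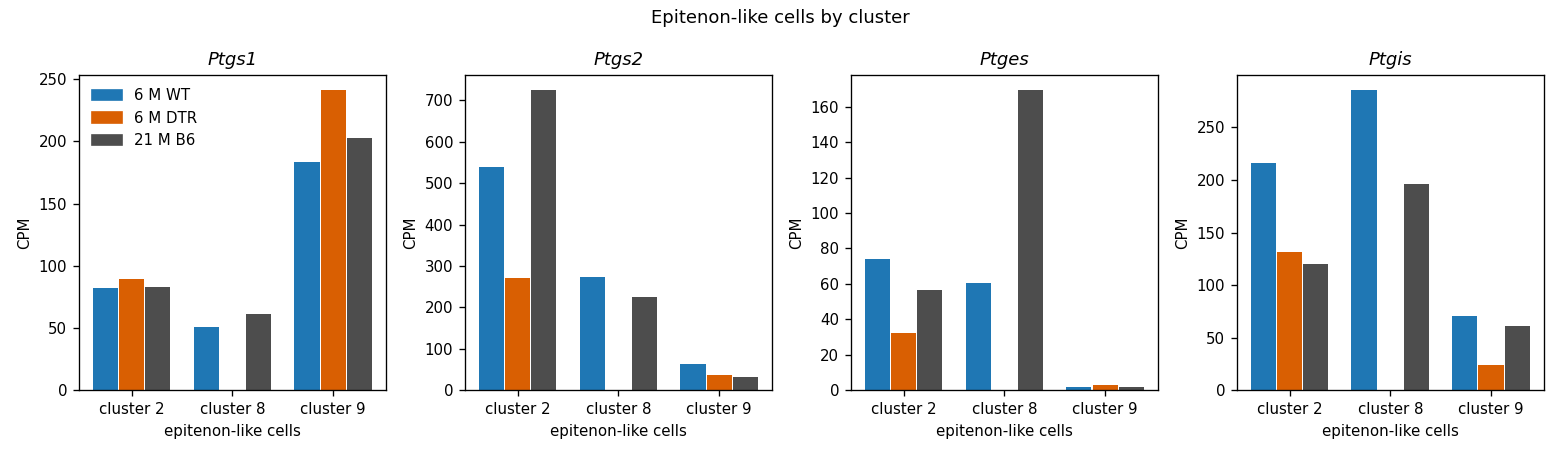
Level of Ptgs1, Ptgs2, Ptges and Ptgis (vertical axes, CPM, linear from 0) in the epitenon-like cells of clusters 2, 8 and 9, with 1 bar for each library and no error bars; no bar is drawn for cluster 8 in 6 M DTR, where it held few epitenon-like cells. In cluster 9 Ptgs1 is at 183 to 241 CPM and Ptgs2 at 31.0 to 63.9 CPM, whereas in cluster 2 Ptgs2 is at 272 to 726 CPM.

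Detection was also compared cell by cell. In thinned epitenon-like cells with Ptgs2, 7.06% (4.52 to 10.4), 7.14% (4.14 to 11.3) and 10.1% (8.17 to 12.3) had Ptgs1, compared with 13.9% (11.8 to 16.3), 15.5% (13.2 to 17.95) and 14.9% (13.2 to 16.7) of the cells without Ptgs2. Ptgs1 was thus found less in cells with Ptgs2 in each library. Ptges was found in 12.3%, 8.04% and 11.03% of epitenon-like cells with Ptgs2 and 8.44%, 4.43% and 8.25% of those without, with intervals that overlap in each library. Ptgis was found in 43.9%, 23.9% and 24.9% of those with Ptgs1 and 26.8%, 16.1% and 16.0% of those without. In macrophage-like cells no Ptges was found in the 57, 101 and 41 thinned cells with Ptgs2, with upper limits of 6.27%, 3.59% and 8.60%. Of those without Ptgs2 only 1.27%, 0.106% and 0.234% had Ptges, so no difference is read from this pair. Because all cells were thinned to the same depth, the shares are not set by depth, but cells of 1 library are not replicates and none of these differences was tested.

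Over the 22 groups of 1 class in 1 library with at least 50 cells, the genes whose levels ran most like 6 of the members were described by Pearson's r of log2(CPM + 1) among 10120 genes. These groups share libraries and classes, so r describes likeness of cell type and carries no p-value. Ptgis ran with Cilp (0.96), Dcn (0.94) and Serpinf1 (0.93), all matrix genes of fibroblasts. Ptges ran with Myoc (0.94), Saa3 (0.89) and Serpinf1 (0.89), and Ptgs1 with Hmcn1 (0.89), Gdf10 (0.88) and Prrt4 (0.87). Ptgs2 ran with Adam33 (0.89), Ecm1 (0.85) and Stmn4 (0.83). Hpgd ran with C5ar2 (0.92), Alox5ap (0.90) and the complement gene C1qa (0.90), and Ptger4 less closely with Zyx (0.82), Tuba4a (0.78) and Irf4 (0.78).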

How the data were processed

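Cells from 3 pooled FDL tendon samples were captured with droplet-based 3′ chemistry. The authors deposited raw UMI counts per gene and barcode for each library. The matrix headers name Cell Ranger 6.0.1 and the submitters' processing notes 2.1.1, and for the counting the genome build and the strand setting were not given in the sources used here. Gene positions are from GENCODE on GRCm38. Ptgis and Ptger2 overlap antisense transcripts and Ptger4 overlaps Ttc33 on the other strand, so their counts may hold reads of these neighbours.

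Of 15536, 16099 and 12273 barcodes, 8357, 6554 and 4798 were kept, those with 1000 to 5000 detected genes and no more than 10% of their counts from mitochondria. Scrublet called 1, 65 and 1 kept cells as doublets, too few to be a working call, and doublets were kept. Each cell was scored for each marker list as the mean log-normalised expression, capped at the 90th percentile of positive cells. It joined the class with the highest score if that was at least 0.25 and led by 0.1, and cells within 0.05 of this lead were counted as near the cut. Leiden clusters (resolution 0.3, 2000 features, 20 components, 20 neighbours, no integration) left out the pathway genes. Counts were summed per class and library and given as CPM, since cells of 1 library are not replicates and no test was possible. Intervals are exact (Poisson, Clopper-Pearson, conditional binomial for ratios). Shares of positive cells were computed with every cell thinned to 2000 UMIs, leaving out 9, 5 and 1 shallower cells. Genes are named by rule: all 9 members, pathway genes that reached 20 CPM in the tenocyte-like, epitenon-like or macrophage-like class, and the 3 genes most like each member that reached 20 CPM in a class, a result not reported here for Ptges3. Pathway genes below that level, and genes that lead clusters, were named after their values were seen. The members and gene lists were chosen with earlier results of these data known.

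Python 3.11.15, scanpy 1.11.5, scipy 1.17.1, numpy 2.4.6, scikit-learn 1.9.0, pandas 2.3.3, matplotlib 3.10.9, R 4.3.3 and edgeR 4.0.16 (for scaling factors only) were used, and the scripts were tested on simulated data. Alternatives changed the cell filter, doublets, gate, scaling, thinning, sex, low filter and fold.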

Additional observations from a re-analysis of the deposited data

Results flagged for a closer look

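Ptgs2 was high in cells that no class of the report includes. The cells of the macrophage-like cluster that passed no gate had 5424, 424 and 339 CPM in 6 M WT first, then 6 M DTR, then 21 M B6, each above the 221, 179.5 and 118 CPM of the macrophage-like class. Cells with Ptgs2 numbered 52 of 78, 26 of 92 and 13 of 36, and the highest held 400, 111 and 38 UMIs.

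The ratio of Ptgs2 between libraries lay above 1 in some classes and below 1 in others, but not firmly. Between 6 M DTR and 6 M WT it was 1.08 in tenocyte-like, 0.572 in epitenon-like and 0.811 in macrophage-like cells. Between 21 M B6 and 6 M WT it was 1.66, 1.36 and 0.535 in the same classes. With 1 library per group these differences between classes were not tested. The tenocyte-like ratio of 6 M DTR ranged from 0.850 to 1.86 and that of 21 M B6 from 0.458 to 3.41 over the alternatives, on both sides of 1, and the macrophage-like ratio of 6 M DTR was 1.36 in male cells alone.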

How the results depend on the processing

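No paired analysis was possible because each group has 1 library, and for the same reason leaving out a replicate was not run. Of 55 ratios, 34 kept their side of 1 under all alternatives that could be computed and 21 did not. The counts of genes beyond 2-fold are small, and 52 of 129 recomputed counts moved by over 1.5 times, with the cause not tested. The last 2 alternatives below were chosen after seeing the data.

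In tenocyte-like cells the count of 6 M DTR against 6 M WT (1) was 2 with classes from clusters, TMM factors, median of ratios factors, female cells or a fold of 1.5, and 0 with a low filter of 20 CPM. With 21 M B6 against 6 M WT (0) it was 1 with no upper limit on genes, clusters, either scaling, male cells or no low filter, 2 with thinning, 3 in female cells and 4 at a fold of 1.5. With 21 M B6 against 6 M DTR (1) it was 2 in female cells, 3 at a fold of 1.5 and 0 at 20 CPM.

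In epitenon-like cells the count of 6 M DTR against 6 M WT (1) was 0 with no upper limit or a stricter gate, 2 in female cells and 3 at a fold of 1.5. With 21 M B6 against 6 M WT (0) it was 1 in female cells or at a fold of 1.5. With 21 M B6 against 6 M DTR (1) it was 2 with at most 5% mitochondrial counts, either scaling, thinning, no low filter or a fold of 1.5, and 0 in male cells.

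In macrophage-like cells the count of 6 M DTR against 6 M WT (0) was 1 with called doublets left out or thinning, and 2 with no upper limit, clusters, female cells, no low filter or a fold of 1.5. With 21 M B6 against 6 M WT (2) it was 1 at 5% mitochondrial counts or with thinning, 4 with clusters and 0 at 20 CPM. With 21 M B6 against 6 M DTR (2) it was 1 with no upper limit, called doublets left out, a stricter gate or female cells, and 0 with thinning or at 20 CPM. Leaving out the highest 6% of doublet scores gave 1 of 21 M B6 against 6 M WT in tenocyte-like cells and 1 relative to 6 M DTR in macrophage-like cells. Adding the ungated cells of the macrophage-like cluster gave 2 for 6 M DTR and 4 of 21 M B6 against 6 M WT in macrophage-like cells.

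Ptgs2 in epitenon-like cells ranged from 0.395 to 0.958 for 6 M DTR and from 1.23 to 1.70 for 21 M B6, and Ptges in tenocyte-like cells from 0.462 to 0.837 and from 0.424 to 0.679. Low genes such as Ptger2 and Ptgds are limited by depth.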
